A study of Mus musculus with 8 samples.

Results

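The semaphorin, plexin and neuropilin genes of the mouse encode a family of guidance ligands and their cell surface receptors, and they were described here across 1 merged list of H3K56ac peaks from muscle stem cells (MuSCs). H3K56ac is the acetylation of lysine 56 of histone H3, a chromatin mark removed by the deacetylase SIRT6. Members were chosen by name alone, as the protein-coding genes of the GENCODE annotation with a symbol starting with Sema and a number, with Plxn, or equal to Nrp1 or Nrp2. This gave 31 of 21938 protein-coding genes, of which 20 were semaphorins (the ligands) and 11 were plexins and neuropilins (the receptors).

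To map H3K56ac with and without SIRT6, the study performed chromatin immunoprecipitation and sequencing (ChIP-seq) on freshly isolated MuSCs, the stem cells that lie along muscle fibres. The 8 libraries form 4 groups of 2, namely H3K56ac and input DNA from Control mice, labelled wild type, and H3K56ac and input DNA from Sirt6mKO mice, all on the C57BL/6 background. In Sirt6mKO mice both Sirt6 alleles are floxed and Cre is driven by the Pax7 promoter, so that Sirt6 is lost in the muscle lineage and not in MuSCs alone. The material used here is the position of each merged peak, with 0 columns of values per sample, and the libraries that entered the merge are not given in the sources used here. The comparison of Sirt6mKO with Control and the depth of the libraries were therefore not analysed here, no test was run, and every share, width and interval below describes the union of peaks. The paper reports more H3K56ac peaks in Sirt6mKO than in control MuSCs, and broad peaks after loss of Sirt6. A peak, a width or a covered share below therefore cannot be assigned to a genotype, and need not hold for wild-type MuSCs.

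Semaphorins are secreted or membrane-bound proteins that share an extracellular sema domain. They steer axons, vessels and migrating cells by binding plexins, whose cytoplasmic part acts on small GTPases and so changes adhesion and the cytoskeleton. Most class 3 semaphorins are secreted and bind neuropilins, which form a complex with plexins, whereas most membrane-bound semaphorins bind plexins directly. In skeletal muscle, Sema3a secreted by activated MuSCs is known as a cue for motor nerve terminals during regeneration.

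The promoter sequences of a pair of genes under wide peaks and of a pair with no promoter peak are shown because the family held both kinds of promoter. Each line gives the bases upstream of a RefSeq transcription start on GRCm38.p6, 5′ to 3′ on the strand of the gene, with CpG dinucleotides in capitals. Plxnd1 and Plxnb2 encode plexins with wide promoter peaks. Sema3e encodes a secreted ligand and Plxnb3 a plexin, and neither had a peak in the gene or within 3 kb of a start. The Plxnd1 stretch lies at chr6:115995006-115995255 on the minus strand, that of Plxnb2 at chr15:89180789-89181038 on the minus strand, that of Sema3e at chr5:14025026-14025275 on the plus strand and that of Plxnb3 at chrX:73756853-73757089 on the plus strand. None of the 4 stretches lies in an annotated exon. The Plxnd1 stretch lies wholly within a peak of 12882 bp, whereas the peak of 12146 bp at Plxnb2 ends inside the stretch shown and a peak of 1193 bp begins there.
Plxnd1: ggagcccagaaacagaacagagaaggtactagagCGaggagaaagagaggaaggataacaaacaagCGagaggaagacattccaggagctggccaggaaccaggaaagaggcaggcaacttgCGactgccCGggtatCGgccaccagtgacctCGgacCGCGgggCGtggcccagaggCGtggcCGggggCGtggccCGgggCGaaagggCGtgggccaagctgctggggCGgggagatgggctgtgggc
Plxnb2: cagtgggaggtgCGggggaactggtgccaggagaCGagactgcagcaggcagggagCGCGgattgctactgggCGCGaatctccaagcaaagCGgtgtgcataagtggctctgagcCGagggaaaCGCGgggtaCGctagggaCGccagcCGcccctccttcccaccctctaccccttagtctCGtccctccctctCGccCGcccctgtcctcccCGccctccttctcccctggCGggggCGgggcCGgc
Sema3e: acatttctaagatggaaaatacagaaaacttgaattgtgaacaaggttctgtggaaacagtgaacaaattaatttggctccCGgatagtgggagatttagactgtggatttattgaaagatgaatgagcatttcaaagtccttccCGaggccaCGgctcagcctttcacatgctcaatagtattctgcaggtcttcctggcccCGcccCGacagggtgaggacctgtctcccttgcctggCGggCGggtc
Plxnb3: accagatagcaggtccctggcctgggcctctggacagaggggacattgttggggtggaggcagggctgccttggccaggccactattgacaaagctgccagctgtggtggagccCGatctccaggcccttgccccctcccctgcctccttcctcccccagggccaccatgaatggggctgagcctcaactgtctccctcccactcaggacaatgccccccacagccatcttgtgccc
The Plxnd1 stretch held 16 CpG in 250 bases and the Plxnb2 stretch 20 in 250 bases. The Sema3e stretch held 7 CpG in 250 bases, and the Plxnb3 stretch held 1 in 237 bases. The unlike CpG content of the 2 stretches without a peak is taken up again below with all promoter windows.

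The merged list held 105600 peaks with a median width of 974 bp. All 6 MuSC marker genes examined (Pax7, Myf5, Vcam1, Itga7, Calcr and Cdh15) had a promoter peak, which is a peak overlapping by at least 1 bp the region within 3 kb of an annotated transcription start site (TSS) of the gene. The widest promoter peak of these markers was 7972 bp or more, with a median of 16656.5 bp. Of 9 markers of other cell types, 5 had a promoter peak. They were Pecam1 and Tek of endothelial cells, Cd68 of macrophages, and Pdgfra and Dpt of fibro-adipogenic cells, while Cdh5, Ptprc, Itgam and Ly6a had none. Per the study's methods, cells with Sca1, CD45 or CD31 at the surface, which Ly6a, Ptprc and Pecam1 encode, were depleted with beads, and MuSCs were then sorted by Integrin-a7 and CD34 or by a fluorescent reporter. Tek had a promoter peak of 12975 bp and Dpt one of 9775 bp, so wide peaks were present at genes listed here as markers of other cell types. A peak at such a gene does not show which cells carried it. The study states that sorted cells were reanalysed and that their purity was incomplete, so a sizeable part of the cells need not have been MuSCs. The part of other cell types in the peaks described below was not tested. Cells of another type cannot be told apart from MuSCs in a bulk sample.

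In the merged list, H3K56ac peaks were present at the promoters of nearly the whole family. A promoter peak was found at 28 of 31 genes, or 90.3% (Wilson 95% interval, 75.1 to 96.7%), beside 67.8% of all protein-coding genes. It was found at 18 of 20 ligand genes (90%, interval 69.9 to 97.2%) and at 10 of 11 receptor genes (90.9%, interval 62.3 to 98.4%). The intervals of ligands and receptors overlapped almost wholly. The 3 genes without a promoter peak were Sema3e, Sema3g and Plxnb3. These intervals and those of the medians below cover counting error over genes only, since genes are not replicates.

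The number of annotated starts differed between the family and the other genes, and each start adds a region in which a peak is counted. The median was 6 TSSs per gene in the family and 3 over all protein-coding genes. Among genes with 4 to 6 TSSs, a promoter peak was present at 8 of 8 family members and at 84.9% of all genes. Among genes with 7 or more TSSs, it was present at 15 of 15 members and at 95.1% of all genes. Among genes with 2 to 3 TSSs, it was present at 5 of 7 members and at 55.96% of all genes. Sema3g, the member with 1 TSS, had no promoter peak, beside a share of 39.7% of all genes with 1 TSS. The family's share therefore stood less far above the background once genes with a like number of TSSs were set beside it.

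The width of the peaks spread over a wide range. The widest promoter peak of a gene had a median of 2952 bp in ligands (interval 1544 to 5550 bp, n = 18) and of 4095 bp in receptors (interval 2187 to 12882 bp, n = 10), beside 3430 bp over all protein-coding genes with a promoter peak. Both intervals contained the median of all genes, and they overlapped each other. A width of at least 5 kb was reached by 9 of 31 members, 5 ligands and 4 receptors, and by 16.5% of all protein-coding genes. Over all genes with a promoter peak, the median width was 2720.5 bp at 1 TSS and 3890.5 bp at 7 or more. Counts of wide peaks were not set beside genes with a like number of TSSs, of which members have more. A width of at least 10 kb was reached by 4 members, the ligand Sema6a and the receptors Plxna2, Plxnd1 and Plxnb2, and by 2.59% of all protein-coding genes. This count depended on how peaks were joined. When peaks less than 1 kb apart were joined, 7 members reached 10 kb, beside 9.6% of all protein-coding genes. Sema4c at 50.0 kb, Sema4b at 13.3 kb and Sema3b at 11.4 kb were added. The joined interval of Sema4c takes in peaks over TSSs of another gene, Fam178b, so its width is not that of a Sema4c promoter alone. The plot of the widest promoter peak by gene shows that, with peaks as deposited, the other genes with a promoter peak lie between 0.534 and 9.092 kb. Plxnb2, at 12.146 kb, lies not far above that range, so the 4 genes are set off by the cut of 10 kb and not by a clear gap.

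**Figure D1:**
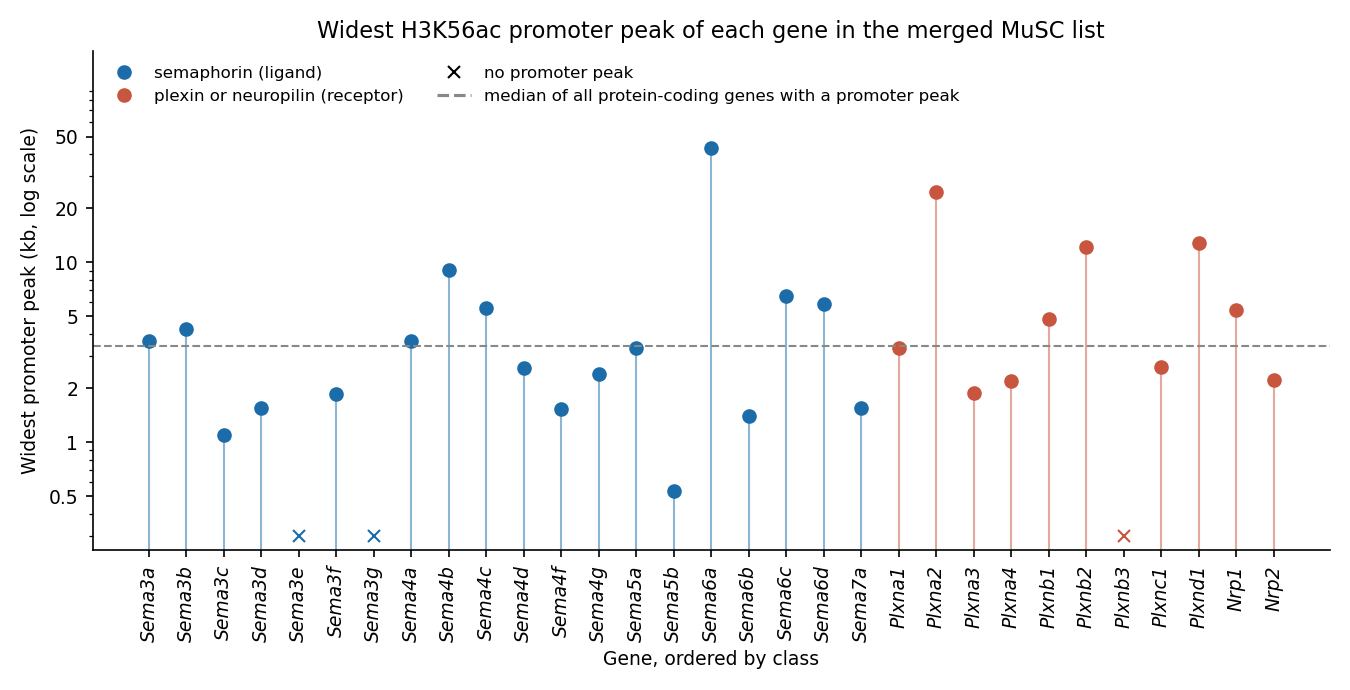
Widest H3K56ac promoter peak of each gene in kb on a log scale, with semaphorins in blue, plexins and neuropilins in red, a cross for genes with no promoter peak and a dashed line at the median of all protein-coding genes with a promoter peak (3430 bp). Sema6a, Plxna2, Plxnd1 and Plxnb2 stand above 10 kb, and Sema5b, with 534 bp, has the narrowest.

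Among the ligands, the 7 secreted class 3 semaphorins had the narrowest promoter peaks of the larger classes, with a median of 1845 bp over the 5 genes that had a peak. Sema3a, which repels axons through Nrp1 and type A plexins, had a widest promoter peak of 3657 bp. Its peaks covered 3.78% of a gene of 477 kb, and all of its 9 TSSs lay under a peak. Sema3c and Sema3d, a pair of ligands with roles in the developing heart and vessels, had promoter peaks of 1090 and 1553 bp over a covered share of 0.805 and 2.61%. Sema3f, a ligand of Nrp2, had a promoter peak of 1845 bp at 2 of its 12 TSSs, and a further 4 peaks off its exons contributed to a covered share of 27.3%.

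Sema3b was the most covered of the class. Peaks lay over 58.0% of the gene (ENSMUSG00000057969.15, chr9:107597674-107609229, minus strand), and 12 of its 14 TSSs were under a peak. A peak of 3763 bp at chr9:107605515-107609277 held the most upstream TSS, and the widest promoter peak, of 4279 bp at chr9:107609336-107613614, lay wholly upstream of the gene. Sema3b lies in a gene-dense region, with 10 other protein-coding genes within 50 kb, and 47.3% of the 50 kb upstream of it and 48.5% of the 50 kb downstream were under peaks.

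Sema3e and Sema3g were the 2 ligands without a promoter peak, and they differed in the rest of the gene. Sema3e (ENSMUSG00000063531.7, chr5:14025276-14256689, plus strand) had 0% of its 231 kb under a peak. The nearest peak lay 284850 bp from a TSS of the gene. Sema3g (ENSMUSG00000021904.6, chr14:31217860-31230352, plus strand) has 1 annotated TSS, which lay 4623 bp from the nearest peak. Within Sema3g, 5 peaks of 348 to 1408 bp covered 29.99% of the gene, and 4 of the 5 overlapped an exon. Sema3g thus had peaks in its body and none at its start, whereas Sema3e had neither.

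Sema3e shares a stretch of chromosome 5 with 3 other class 3 genes, Sema3d, Sema3a and Sema3c. From the start of Sema3d to the end of Sema3c (chr5:12383385-17730268, 5.35 Mb) the list held 57 peaks. That is 10.7 peaks per Mb, beside 40.6 per Mb over chromosome 5, and the covered share was 1.25% beside 6.87%. Of the 57 peaks, 25 lay in the 4 semaphorin genes. A promoter peak was present at 6 of the 21 protein-coding genes of the stretch. These were Sema3a, Sema3c, Sema3d, Pclo, Cacna2d1, which encodes a calcium channel subunit and had the widest peak of the stretch at 3960 bp, and Hgf, the ligand of the receptor Met, with 973 bp. Several of the other genes there belong to the Speer family of closely similar copies. The authors kept only reads with a single alignment, so the absence of a peak at such copies cannot be read.

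The 6 transmembrane class 4 semaphorins all had a promoter peak, with a median of 3114 bp. Sema4b had the widest, of 9092 bp at chr7:80201435-80210526, which begins downstream of its TSSs and overlaps no exon of its longest coding transcript. Its TSSs were all under a peak of 2100 or 3672 bp, and peaks covered 49.0% of the gene (ENSMUSG00000030539.13, chr7:80186841-80226527, plus strand). Sema4c, a ligand of Plxnb2, had a peak of 5133 bp over its starts and one of 5550 bp wholly upstream of the gene. Of the 50 kb upstream of Sema4c, 83.4% was under peaks. When peaks less than 1 kb apart were joined, the interval at its promoter reached 50.0 kb and took in peaks over TSSs of Fam178b. Sema4d, the ligand of Plxnb1 also known as CD100, had a promoter peak of 2574 bp and 7 of 14 TSSs under a peak.

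The start used mattered for Sema4a and Sema4f. Sema4a, which acts on immune cells and vessels, had 1 of 17 TSSs under a peak, that of the transcript Sema4a-212 inside the gene. The widest promoter peak of Sema4a, of 3654 bp, lay near the 3′ end of the gene, while its most upstream TSS lay 1588 bp from the nearest peak. Sema4f had 1 promoter peak, of 1536 bp, at the internal TSS of Sema4f-202. The starts of its remaining transcripts lay 21512 and 21736 bp from a peak, so that Sema4f counted as a gene with a promoter peak only through the internal start. Sema4g had a promoter peak of 2379 bp with 6 of 7 TSSs under a peak.

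Class 5 semaphorins carry thrombospondin repeats, and the 2 genes differed in width. Sema5a had a promoter peak of 3330 bp, with 8 of 9 TSSs under a peak, and Sema5b had one of 534 bp, the narrowest of the family. Class 6 semaphorins, which are transmembrane ligands of type A plexins, had the widest promoter peaks among the ligand classes, with a median of 6178.5 bp over 4 genes. Sema6b had a widest promoter peak of 1397 bp, Sema6c one of 6513 bp and Sema6d one of 5844 bp. The peak of Sema6d lay at internal starts, and its most upstream TSS, which begins a 578-kb gene, lay 48252 bp from a peak. Sema7a, which is linked to the membrane by a lipid anchor and binds Plxnc1 and integrins, had a promoter peak of 1544 bp over both of its TSSs and a covered share of 3.75%.

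Sema6a had the widest promoter peak of the family and the rank of 4 among all protein-coding genes with a promoter peak. The peak spanned 42968 bp at chr18:47328636-47371603, of which 2733 bp lay upstream and 40235 bp downstream of the most upstream TSS. It held 8 of the 9 annotated TSSs of the gene (ENSMUSG00000019647.16, chr18:47235598-47368870, minus strand). Of the 19 exons of the longest coding transcript, the peak overlapped 1. A further wide peak, of 26585 bp at chr18:47301851-47328435, followed in the gene, and joining peaks less than 1 kb apart gave an interval of 71.1 kb. In all, 14 peaks covered 69.5% of the gene. The covered share reached 83.7% in the 50 kb beyond the 3′ end and 5.47% in the 50 kb upstream, and 1 other protein-coding gene lay within 50 kb.

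Among the receptors, type A plexins transduce signals of class 3 semaphorins with neuropilins and bind class 6 semaphorins directly. All 4 had a promoter peak, with a median of 2764.5 bp, and Plxna2 stood apart from the other 3. Plxna2, a receptor of Sema6a, had a widest promoter peak of 24568 bp at chr1:194618807-194643374, which ranked 35 among all protein-coding genes. Of this peak 23550 bp lay downstream of the reference TSS (the most upstream TSS in the peak), and it overlapped 1 of 32 exons. Within Plxna2 (ENSMUSG00000026640.12, chr1:194618218-194816869, plus strand) 40 peaks were counted, the most of any member. They covered 73.2% of the gene, the highest share of the family, and 26 of the 40 overlapped no exon of the gene.

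The other type A plexins had narrower peaks. Plxna1 had a promoter peak of 3342 bp at 1 of 6 TSSs, Plxna3 one of 1875 bp at 1 of 8 TSSs, and Plxna4 one of 2187 bp at 1 of 2 TSSs. In Plxna4, whose gene spans 444 kb, the widest peak was not at the start but inside the gene, with 6247 bp. The covered shares were 22.4% for Plxna1, 4.68% for Plxna3 and 4.70% for Plxna4.

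Of the type B plexins, Plxnb1 and Plxnb2 encode receptors of class 4 semaphorins. The 3 type B genes differed widely. Plxnb2 had a widest promoter peak of 12146 bp at chr15:89168683-89180828, of which 12106 bp lay downstream of the most upstream TSS, and the rank was 309. The peak overlapped 3 of 38 exons, and 49.5% of the gene was covered (ENSMUSG00000036606.17, chr15:89155549-89180788, minus strand). Plxnb1 had a single peak, of 4848 bp, at 3 of its 7 TSSs, and it covered 16.7% of the gene. Plxnb3 (ENSMUSG00000031385.14, chrX:73757090-73772514, plus strand) had no peak in the gene, and its 3 TSSs lay 8705 to 17146 bp from the nearest peak.

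Plxnd1, the receptor of Sema3e and a regulator of vessel growth, had a widest promoter peak of 12882 bp at chr6:115984537-115997418, with 2413 bp upstream and 10469 bp downstream of its most upstream TSS and a rank of 264. All 5 annotated TSSs of Plxnd1 lay under a peak. Peaks covered 71.8% of the gene (ENSMUSG00000030123.15, chr6:115954811-115995005, minus strand), and 3 of the 11 peaks in it overlapped no exon. Plxnc1, the receptor of Sema7a, had a promoter peak of 2631 bp at 1 of its 5 TSSs, a separate peak of 1857 bp at a further one, and a covered share of 7.78%.

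The neuropilins bind class 3 semaphorins and also vascular endothelial growth factor. Nrp1 had a promoter peak of 5454 bp over its 4 TSSs, of which 3689 bp lay upstream of the most upstream start. Nrp2 had a peak of 1687 bp over both TSSs and a wider one of 2229 bp in an intron downstream. Nrp2 held 23 peaks over a covered share of 19.5% and Nrp1 held 12 over 13.7%. In Nrp1 the widest peak was inside the gene, with 5917 bp.

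Some known partners were set side by side as a description, chosen after their values were seen. Sema3e had no peak, whereas its receptor Plxnd1 had 71.8% of the gene covered. Sema6a and its receptor Plxna2 both had wide peaks, with 69.5 and 73.2% of the gene covered, while Plxna4, a further receptor of Sema6a, had 4.70%. Sema4c and its receptor Plxnb2 had covered shares of 34.8 and 49.5%, Sema4d and Plxnb1 of 13.9 and 16.7%, and Sema7a and Plxnc1 of 3.75 and 7.78%. Sema3a and Nrp1 had 3.78 and 13.7%, whereas Sema3f, with 27.3%, was more covered than its receptor Nrp2, with 19.5%. The covered share thus had no common order of ligand and receptor either. No order of ligand and receptor was common to these pairs at the level of promoter width, since Sema6a was wider than Plxna2 and Sema4c was narrower than Plxnb2.

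Long genes were covered less, with a median covered share of 12.1% over all protein-coding genes of 10 to 20 kb and of 3.86% over those of 200 to 500 kb, so the covered share was read against genes of a like length. The median covered share was 10.5% in ligands (interval 3.78 to 33.3%), 16.7% in receptors (interval 4.68 to 71.8%) and 7.82% over all protein-coding genes. Each member was placed among the protein-coding genes within 20% of its length, and the median percentile was 64.9 for ligands (interval 37.3 to 84.3) and 71.1 for receptors (interval 28.4 to 99.1). Of 31 members, 22 stood above the percentile of 50 and 6 at 90 or more. The 6 were Plxna2 at 99.5, Plxnd1 at 99.1, Sema6a at 99.0, Sema4b at 95.7, Plxnb2 at 95.2 and Sema3b at 95.1. At least 50% of the gene was covered in 4 of 31 members, Plxna2, Plxnd1, Sema6a and Sema3b, and in 9.9% of all protein-coding genes. Plxnb2 and Sema4b, with 49.5 and 49.0%, fell just short, and Sema3e and Plxnb3 had a covered share of 0%.

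**Figure D2:**
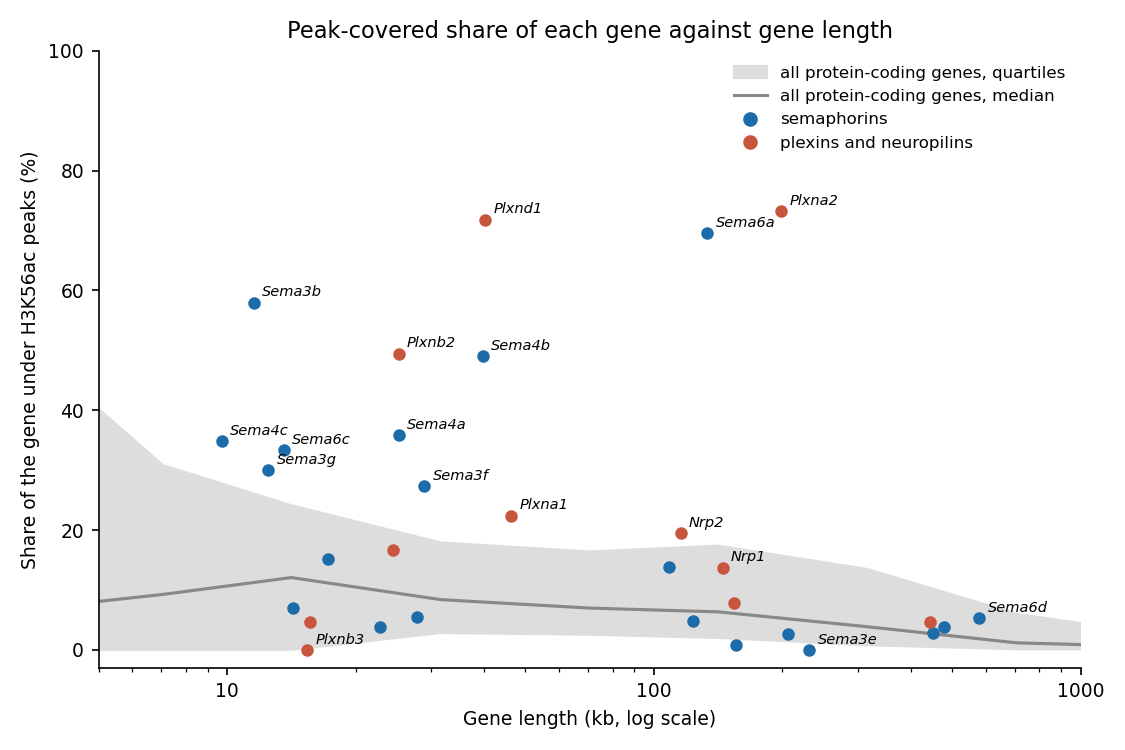
Share of each gene under H3K56ac peaks in percent against gene length in kb on a log scale, with semaphorins in blue, plexins and neuropilins in red, and the median and quartiles of all protein-coding genes in grey. Plxnd1, Plxna2, Sema6a and Sema3b lie above 50%, and Sema3e and Plxnb3 lie at 0.

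At the level of single starts, 108 of the 200 annotated TSS positions of the family lay under a peak, or 54%, beside 53.2% of all TSSs of protein-coding genes. The share was 57.9% in ligands (84 of 145 TSSs) and 43.6% in receptors (24 of 55). At least 1 TSS lay under a peak in 28 of 31 members and in 62.1% of all protein-coding genes. In 6 members, Nrp1, Nrp2, Plxnd1, Sema3a, Sema4b and Sema7a, every TSS lay under a peak, as in 24% of all protein-coding genes. The widest promoter peak covered no TSS of its own gene in 6 of the 28 members with a promoter peak, which were Nrp2, Sema3b, Sema4a, Sema4b, Sema4c and Sema6b, and in 16.6% of all protein-coding genes with one. With peaks as deposited, none of the 80 promoter peaks covered a TSS of another protein-coding gene. Over all protein-coding genes, leaving out such peaks lowered the share with a promoter peak from 67.8 to 59.9%. The share of single starts under a peak was close to the background, whereas the share of genes with at least 1 such start was above it. The latter was not set beside genes with a like number of TSSs, of which members have more.

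Peaks were also counted by distance from a reference TSS, the most upstream TSS in or nearest to the widest promoter peak. Distances within 3 kb are set by that choice and were not read, and a wide promoter peak can reach past 3 kb. Between 3 and 10 kb downstream, a peak was present in 14 of 20 ligands (70%), in 6 of 11 receptors (54.5%) and in 38.8% of all protein-coding genes. Between 3 and 10 kb upstream, the shares were 40, 45.5 and 34.8%. Between 10 and 50 kb downstream they were 70, 90.9 and 61.2%, and between 10 and 50 kb upstream 75, 81.8 and 61.6%. With the widest promoter peak of each gene left out, a peak was present between 3 and 10 kb downstream in 8 ligands (40%), 1 receptor (9.09%) and 32.0% of all protein-coding genes. Upstream at the same distance it was then present in 8 ligands (40%), 4 receptors (36.4%) and 30.2% of all protein-coding genes. Between 3 and 10 kb downstream, 6 of the 14 ligands and 5 of the 6 receptors thus had no peak other than the widest promoter peak. Of the 250 peaks that overlapped a member gene, 161 (64.4%) overlapped none of its exons, and the median width of the 250 was 1007 bp.

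**Figure D3:**
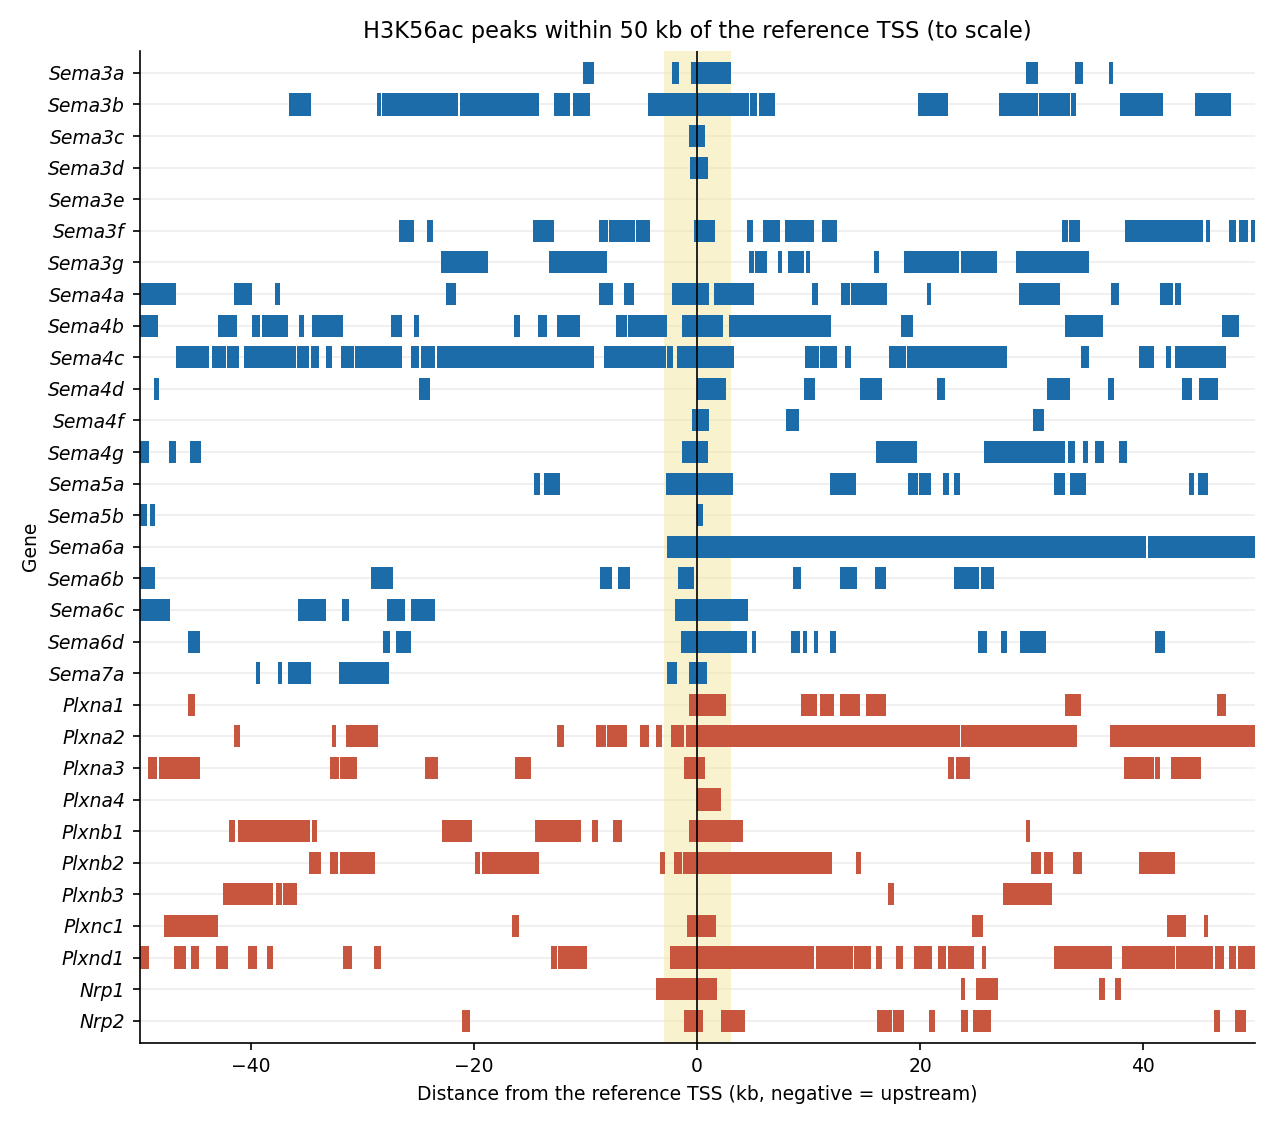
H3K56ac peaks drawn to scale within 50 kb of the reference TSS of each gene, with upstream to the left, semaphorins in blue, plexins and neuropilins in red, and the region within 3 kb shaded. The wide peaks of Sema6a, Plxna2, Plxnb2 and Plxnd1 reach from the start into the gene, Sema4c has peaks over most of its upstream side, and the row of Sema3e is empty.

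Promoter windows of RefSeq, which reach from 250 bases before to 50 bases after a start on GRCm38.p6, were matched by symbol for 26 of the 31 members, with 37 windows. No window was matched for Plxna1, Plxna4, Sema3b, Sema3f and Sema6a. Of the 37 windows, 24 (64.9%) lay under a peak, beside 62.3% of 20150 windows of all protein-coding genes. The ratio of observed to expected CpG had a median of 0.728 in the 24 windows under a peak and of 0.305 in the 13 windows not under a peak. Over all genes it was 0.766 and 0.205. Windows under a peak were thus richer in CpG in the family as in all genes, but the ranges overlapped. Sema3a and Sema4d each had a window under a peak with 2 CpG (ratio 0.162 and 0.101), whereas the window of Sema3e had no peak and a ratio of 0.579. The family windows under a peak ranged from 0.101 to 0.992, and the windows of Sema3e and Plxnb3, whose promoters are shown above, both lay within this range. The Sema3e ratio lay between the medians of 0.305 and 0.728, and that of Plxnb3, 0.133, lay below both.

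**Figure D4:**
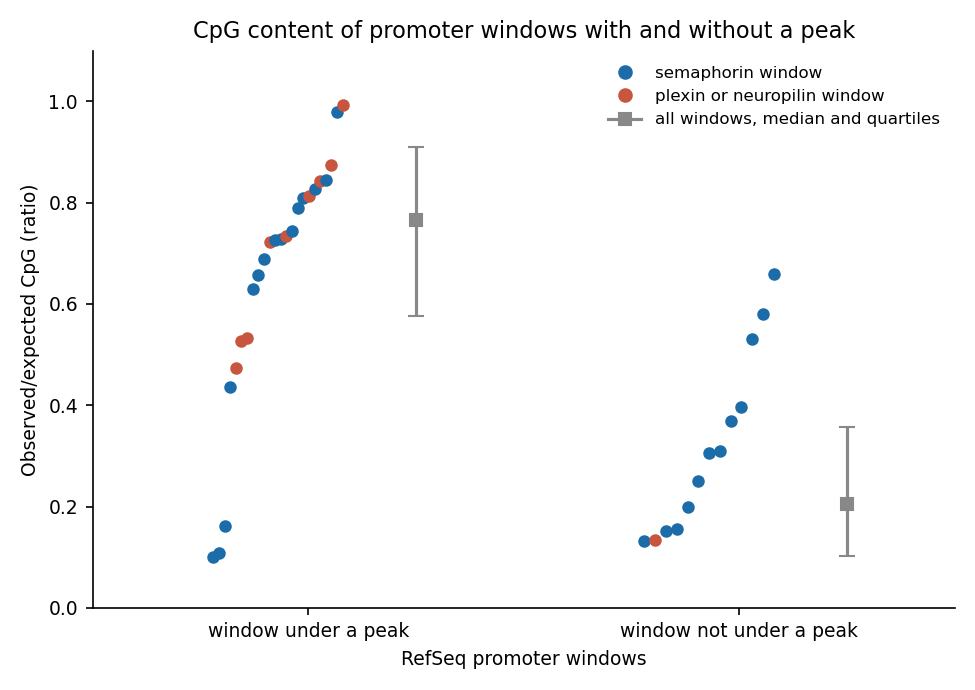
Ratio of observed to expected CpG in RefSeq promoter windows under a peak (24 windows) and not under a peak (13 windows), with semaphorins in blue, plexins and neuropilins in red, and the median and quartiles of all protein-coding genes as a grey square with bars. Points are spread sideways by rank for visibility, and windows under a peak have the higher median, 0.728 against 0.305.

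3 motifs were searched on both strands of the windows. TGANTCA, the site of AP-1, was found in 3 of 37 windows (8.11%) and in 7.00% of the windows of all genes, and CAGCTG, an E-box bound by myogenic factors, in 6 windows (16.2%) and in 15.7% of all. TATAAA, the TATA box, was found in 0 of 37 windows and in 12.1% of all. The AP-1 motif was found in windows of Sema4c, Sema4d and Sema6b. The AP-1 motif ends and the E-box begins with CA, so the motifs can share these bases, but no window of the family held both. A match of letters is a description and not a bound site.

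The other genes of the pathway were read against the same background. Of 10 further receptors and coreceptors, 7 had a promoter peak, close to the 67.8% of all protein-coding genes, with a median width of 2165 bp and a median covered share of 2.38%. Among them were Itgb1, the integrin subunit that binds Sema7a, with 6996 bp, and Met, a partner of Plxnb1, with 4033 bp and 50.3% of the gene covered. Chl1, Timd2 and Trem2 had none. Of 20 cytosolic effectors, 18 had a promoter peak, which is above that share, with a median width of 4883 bp and a covered share of 18.6%. Neither list was set beside genes with a like number of TSSs or of a like length. Gsk3b, a kinase in the response to Sema3a, had 9685 bp, Arhgef11, a RhoA exchange factor bound by type B plexins, had 8377 bp, and Mical3, an oxidase that acts on actin, had 7780 bp. Crmp1 and Fes had none. None of the 30 pathway genes reached 10 kb, beside 2.59% of all protein-coding genes. When peaks less than 1 kb apart were joined, 7 did, beside 9.6% of all protein-coding genes.

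Other axon guidance families were set beside the members. A promoter peak was present at 32 of 39 genes of the ephrin, Slit and netrin systems (82.1%), beside 67.8% of all protein-coding genes, with a median width of 2585.5 bp and a median covered share of 7.09%. None of these 39 genes reached 10 kb, beside 4 of the 31 semaphorin, plexin and neuropilin genes and 2.59% of all protein-coding genes. With peaks less than 1 kb apart joined, 5 of the 39 and 7 of the 31 did, beside 9.6% of all protein-coding genes. All 15 ligands of these systems had a promoter peak and 17 of the 24 receptors, the latter close to the background, whereas ligands and receptors of the semaphorin system had like shares. The 8 ephrins and 11 of 14 Eph receptors had a promoter peak, as did the 3 Slits and 3 of 4 Robo receptors, and the 4 netrins and 3 of 6 netrin receptors. Netrins had the widest promoter peaks of these groups, with a median of 6385.5 bp, and Slits the narrowest, with 804 bp. No test was run of these differences, and these families were not set beside genes with a like number of TSSs or of a like length. The 39 genes had a median length of 69.0 kb, beside 40.2 kb in the 31 members and 17.4 kb over all protein-coding genes.

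**Figure D5:**
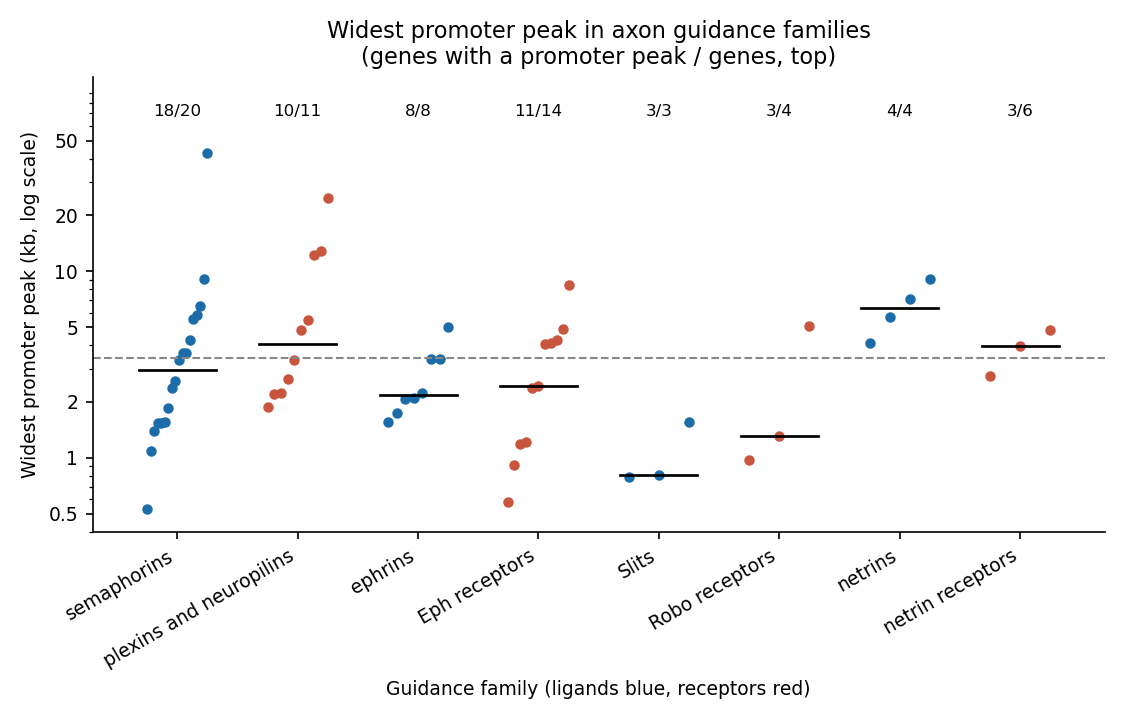
Widest promoter peak of each gene in kb on a log scale for 8 groups of guidance genes, with ligands in blue, receptors in red, a bar at the median of each group, a dashed line at the median of all protein-coding genes (3430 bp) and, on top, the number of genes with a promoter peak over the number of genes. The values above 10 kb are Sema6a among the semaphorins and Plxna2, Plxnd1 and Plxnb2 among the plexins.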

How the data were processed

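Chromatin from FACS-sorted MuSCs was immunoprecipitated with an antibody against H3K56ac, and libraries were made with an Ion ChIP-seq kit. The authors trimmed reads with Trim Galore, aligned them to mm10 with bowtie (unique alignments only), discarded duplicates using Picard, called peaks with MACS2, removed blacklisted regions and merged overlapping peaks with GenomicRanges. The submitters' processing notes name Bowtie, FastQC, SAMtools and deepTools. The deposited list gives peak positions in bp, and the score in the deposited list was 0 in every row. There were 0 columns of values per sample, so no test was made, and the list holds no depth. Read totals that the study states for the libraries were not used here. Merging joins and widens peaks, so a width describes the union of libraries.

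Positions were read 1-based on GRCm38, the same build as mm10, and 0 peaks ran past the end of a chromosome. Genes and TSSs came from GENCODE M21 and promoter windows from RefSeq (GRCm38.p6). Shares have Wilson 95% intervals and medians have order-statistic 95% intervals, computed with Python 3.11.15, numpy 2.4.6 and scipy 1.17.1. The functions were tested on simulated intervals. Every member was named with a value, and positions were given for the 5 members with the widest promoter peak, the 5 with the highest covered share and those with no promoter peak. Sequences were those of the 2 allowed members with the widest promoter peak and of the 2 longest members without one, and windows with more than 30 bases in annotated exons, that of Plxna2 among them, were passed over. A further marker list is not reported here. Members, lists and measures were chosen with earlier results of these data known.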

Additional observations from a re-analysis of the deposited data

How the results depend on the processing

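The shares, median widths, covered shares and percentiles of ligands and receptors were recomputed under alternatives. This gave 39 values for 8 results, and 38 of them stayed inside the interval of the reported value. The intervals are wide, such as 62.3 to 98.4% for the share of receptors and 2187 to 12882 bp for their width. Staying inside them therefore does not show that a value was stable. The exception was the share of receptors with a promoter peak, which was 100% without the members on chromosome X (Plxna3 and Plxnb3), because Plxnb3 is the receptor without one. The alternatives were a promoter of 1 kb, TSSs of protein-coding transcripts, the gene start alone, peaks of at least 500 bp, peaks less than 1 kb apart joined, dropping peaks over a TSS of another protein-coding gene, 3 kb added to both ends of a gene, genes within 50% of the length, and peaks over a TSS alone, the last chosen after seeing the data. With the gene start alone, 80% of ligands had a promoter peak, since Sema4f and Sema6d lost theirs, beside 64.9% of all protein-coding genes. With protein-coding transcripts, 85% did, since Sema4f lost its peak, beside 66.7% of all protein-coding genes. The median widest promoter peak was lower in ligands than in receptors under 6 of 7 alternatives. Joining peaks turned this order, with 4833 bp in ligands and 4095 bp in receptors. Joining also moved the median over all protein-coding genes with a promoter peak, from 3430 to 4302.5 bp. Receptors thus lay above that median with peaks as deposited and below it with peaks joined. The number of members with a promoter peak of at least 10 kb moved from 4 to 7 when peaks less than 1 kb apart were joined, a count chosen after seeing the data. The share of all protein-coding genes moved from 2.59 to 9.6%. No paired analysis was possible because the list gives merged positions and no value of a single sample. The list gives neither depth nor peak strength, so a missing peak does not show that the mark is absent.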
